A study of Mus musculus with 32 samples.

Results

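The genes described here are 10 neurotrophic factors and receptors, taken by their symbols: the ligands Bdnf, Ntf3 and Gdnf, the Trk receptors Ntrk2 and Ntrk3, the p75 neurotrophin receptor Ngfr, the sorting receptor Sort1, and the receptor components for the GDNF family Gfra1, Gfra2 and Ret. All 10 are in the table of reads counted on 54532 genes of mouse striatum. A filter on low counts left 16610 genes for testing, and 9 of the 10 passed it; Ntf3 did not.

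RNA came from whole striata of 32 mice aged 6 months, with 8 mice of each genotype: wild-type, Msh3-/-, zQ175 and zQ175:Msh3-/-. Each group had 4 males and 4 females, except zQ175:Msh3-/- with 5 males and 3 females. In zQ175 mice a long CAG repeat has been knocked into their own Htt gene, the model of Huntington's disease used here, and Msh3-/- mice lack a mismatch repair gene after CRISPR editing with guides in exons 3 and 8, in every cell and on a C57BL/6J background. Each sample is a tissue of many cell types in bulk, so for every gene below fewer cells that use it and less RNA per cell cannot be told apart.

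Neurotrophins are secreted survival and plasticity factors that are made as precursors and cleaved. BDNF binds TrkB (Ntrk2) and NT-3 binds TrkC (Ntrk3), both receptor tyrosine kinases, while the p75 receptor binds all neurotrophins and, with sortilin, their uncleaved precursors. GDNF signals through the kinase Ret after binding the co-receptor GFRα1 (Gfra1), and neurturin through GFRα2 (Gfra2). In the striatum most BDNF is thought to arrive as protein from cortical axons, and TrkB on spiny projection neurons is its main receptor there, which is why this supply has been studied in Huntington's disease.

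The total count on genes ran from 12359347 to 25030335 reads in a mouse (median 16700247). In Msh3-/- mice the targeted gene, Msh3, was at 11.75 ± 1.197 CPM (reads on a gene divided by the mouse's total and scaled by the TMM method, on the counts per 1000000 scale; SD, n = 8) against 24.5 ± 1.61 in wild-type, and in zQ175:Msh3-/- mice at 12.9 ± 1.15 against 24.4 ± 1.53 in zQ175; the highest value without Msh3, 14.2 CPM, was below the lowest with it, 22.8 CPM. In the cortex of Msh3-/- mice, the paper reports Msh3 mRNA as ablated by an assay inside the deleted region, and no detectable MSH3 protein. The counts here sum reads over the whole gene, and where the remaining reads lie was not tested. All 10 markers of spiny projection neurons were detected in all 4 groups, with a summed level of 7300 to 8800 TPM (transcripts per 1000000, divided by length) in wild-type mice. In each comparison of zQ175 with its control, 9 of the 10 fell by the calling rule given below. Of all genes, 6.89% fell by that rule with Msh3 present and 5.96% without it. Markers of cortical projection neurons varied more among mice of one genotype: Slc17a7, the vesicular glutamate transporter of cortical neurons, ran from 34.3 to 229 CPM in wild-type and from 96.0 to 508 CPM in zQ175:Msh3-/-. The summed level of the 10 cortical markers overlapped in all groups (1780 to 2380 TPM in wild-type mice, 1550 to 2540 among Msh3-/- mice, 1250 to 2070 among zQ175 mice and 1430 to 2460 in zQ175:Msh3-/-), and none of them was at 0. Most of that sum was Nrgn, which spiny neurons also express, at 1820 ± 172 TPM in wild-type mice (SD, n = 8), and the median sum was 1900 TPM in wild-type and 1720 TPM in zQ175 mice. The marker levels set beside members further on are another quantity, the mean log2 CPM of a list, in which each marker counts equally; such a level need not move as the sum does.

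Levels of different genes are compared here in TPM, and they spread over a wide range among the 10 genes. Ntrk2 had the highest level in wild-type striatum at 202 ± 13.5 TPM (SD, n = 8), followed by Sort1 at 178 ± 7.18 TPM. Next came Ntrk3 at 56.3 ± 5.59 TPM and Gfra1 at 40.0 ± 2.78 TPM. Ntrk2 and Sort1 together made up 75.8% to 77.6% of the TPM of the 10 genes in each wild-type mouse. The remaining receptors were far lower, with Gfra2 at 7.76 ± 2.68 TPM, Ngfr at 5.76 ± 2.33 TPM and Ret at 2.30 ± 0.904 TPM. The ligands were among the lowest, with Gdnf at 2.81 ± 0.352 TPM, Bdnf at 2.02 ± 1.25 TPM and Ntf3 at 0.105 ± 0.0984 TPM. Neighbours in this order overlapped between wild-type mice for Ntrk2 and Sort1, for Gfra2 and Ngfr, for Gdnf and Ret, and for Ret and Bdnf; the other 5 steps of the order separated without overlap.

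**Figure D1:**
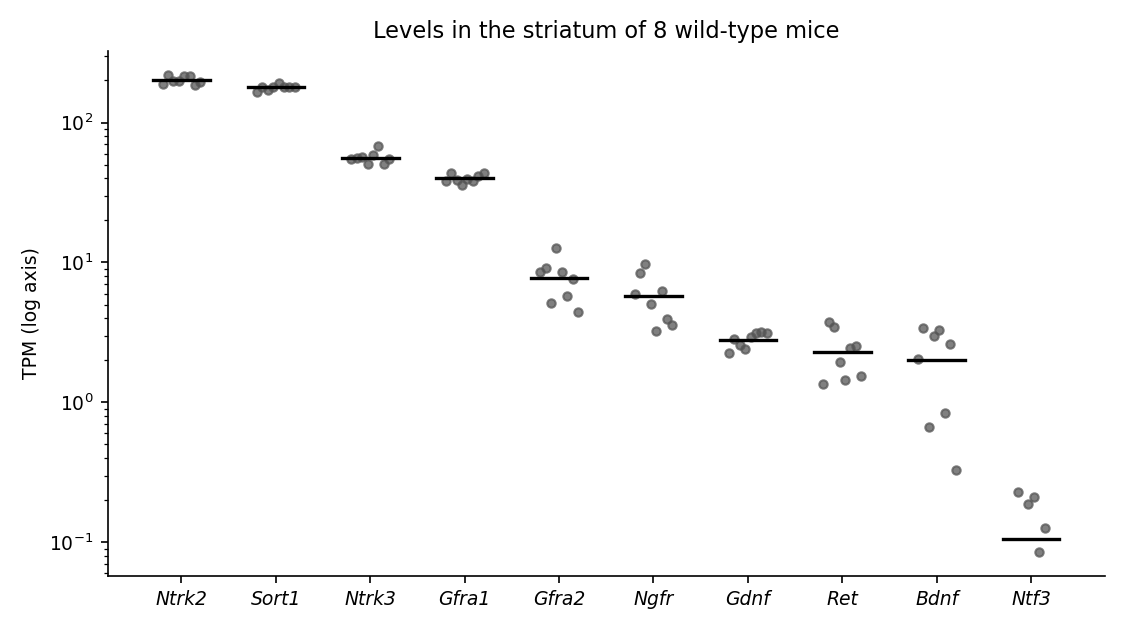
TPM of the 10 genes in 8 wild-type striata on a log axis; each point is a mouse and each line the mean, and 3 mice at 0 for Ntf3 are counted in its mean but cannot be drawn. The receptors Ntrk2 and Sort1 have means of 202 and 178 TPM, and the ligands Gdnf and Bdnf lie between 0.330 and 3.39 TPM.

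The first question was whether the zQ175 allele changes these genes, asked once with Msh3 present (zQ175 against wild-type) and once without it (zQ175:Msh3-/- against Msh3-/-). The comparisons have no mouse in common. A gene is called here when edgeR's quasi-likelihood test gives a Benjamini-Hochberg adjusted p under 0.05 over the 16610 genes and the fold change is at least 1.2. Between zQ175 and wild-type, 1 of the 9 tested members was called, Ntrk3, and it was lower; of all genes, 11.6% were called, 4.7% as higher and 6.89% as lower. Between zQ175:Msh3-/- and Msh3-/-, 3 of the 9 were called, Gdnf, Ntrk3 and Ngfr, all lower; of all genes, 10.6% were called, 4.68% as higher and 5.96% as lower. The median log2 fold change of the 9 members was -0.15 in the first comparison and -0.17 in the second, beside 0.01 in each for all genes tested, and 7 of the 9 had a negative value in both. By adjusted p alone, with no minimum fold, the members past the threshold were 3 of 9 against 26.5% of all genes with Msh3 present, and 5 of 9 against 24.1% of all genes without Msh3.

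**Figure D2:**
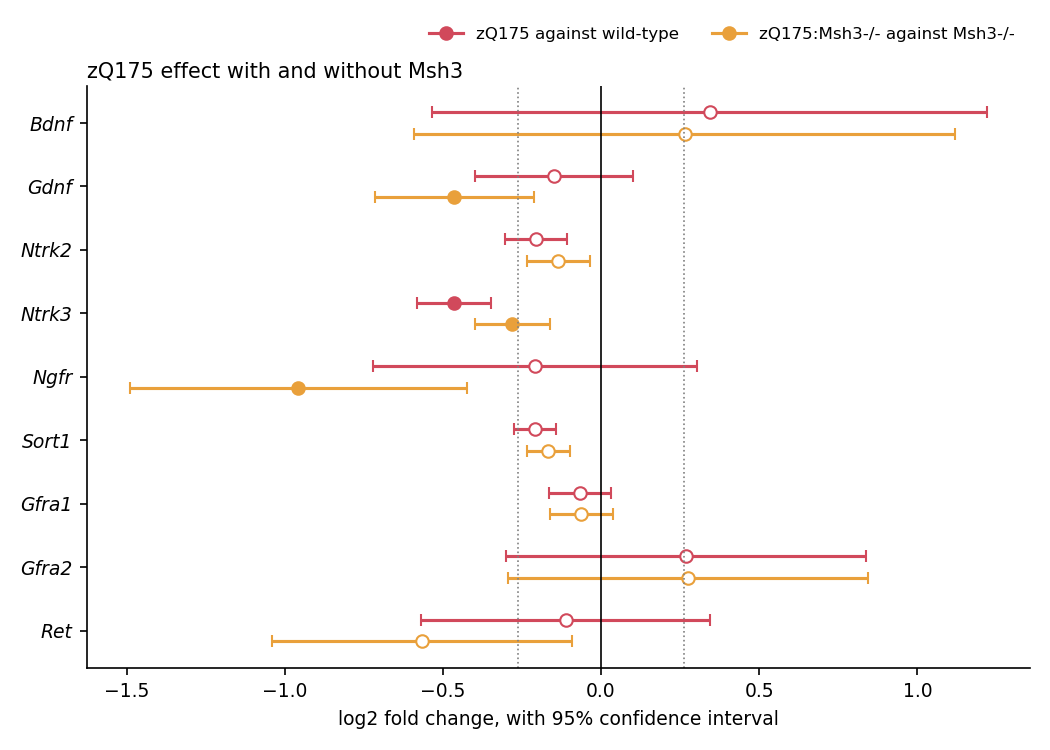
Log2 fold changes of the 9 tested members for zQ175 against wild-type (red) and zQ175:Msh3-/- against Msh3-/- (orange), with 95% confidence intervals; filled points are called, open points are not, and dotted lines mark a 1.2-fold change. Ntrk3 is the member called in both comparisons, at -0.465 and -0.28, and the intervals of Bdnf and Gfra2 are among the widest.

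Among the ligands, Bdnf (ENSMUSG00000048482; GRCm38 chromosome 2, 109674700 to 109727007, plus strand) codes for brain-derived neurotrophic factor. Its lowest, median and highest levels were 0.571, 4.10 and 5.92 CPM in wild-type and 1.06, 4.80 and 9.28 CPM in Msh3-/- mice. In zQ175 mice the same values were 0.928, 4.70 and 6.42 CPM, and in zQ175:Msh3-/- mice 1.71, 5.46 and 10.3 CPM. The 4 groups overlapped almost wholly, and within wild-type mice the highest level was 10.4 times the lowest. The log2 fold change was 0.34 ± 0.43 (SE) with Msh3 present, with a 95% interval from -0.54 to 1.22 (edgeR's quasi-likelihood test, Benjamini-Hochberg adjusted p = 0.615). Without Msh3 it was 0.265 ± 0.42, with an interval from -0.59 to 1.12 (edgeR's quasi-likelihood test, Benjamini-Hochberg adjusted p = 0.701); both intervals reach past 1.2-fold in either direction.

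Ntf3 (ENSMUSG00000049107; chromosome 6, 126101412 to 126166910, minus strand), which codes for NT-3, was at the limit of detection. Only 60 of its reads were counted over the 32 mice: 9 in wild-type mice, 12 among Msh3-/- mice, 19 among zQ175 mice and 20 in zQ175:Msh3-/-. No mouse had more than 5, and 3, 2, 2 and 0 mice of these groups had none. At the lowest depth, 3 reads amount to 0.243 CPM, and most mice were below that, so this depth limits what difference can be detected. Without the filter on low counts, edgeR gave a log2 fold change of 1.01 ± 0.63 with Msh3 present (quasi-likelihood test, Benjamini-Hochberg adjusted p = 0.378) and of 0.70 ± 0.60 without it (adjusted p = 0.52). Averaged over both Msh3 genotypes, the same test gave 0.855 ± 0.44 (adjusted p = 0.192), which was not called.

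Gdnf (ENSMUSG00000022144; chromosome 15, 7810846 to 7837575, plus strand), which codes for glial cell line-derived neurotrophic factor, fell in zQ175:Msh3-/- mice. Its lowest, median and highest levels there were 2.95, 3.84 and 4.99 CPM, against 3.22, 5.355 and 6.89 CPM in Msh3-/- mice. The groups overlapped, with 2 of 8 zQ175:Msh3-/- mice below every Msh3-/- mouse. The log2 fold change was -0.46 ± 0.12, or 0.725-fold (edgeR's quasi-likelihood test, Benjamini-Hochberg adjusted p = 0.00502). An exact two-sided permutation test of 8 mice against 8 gave an unadjusted p = 0.0159. In zQ175 mice the levels were 3.49, 3.84 and 5.03 CPM against 3.58, 4.56 and 5.145 CPM in wild-type. That difference was not called, at -0.15 ± 0.12 (edgeR's quasi-likelihood test, Benjamini-Hochberg adjusted p = 0.416). Msh3-/- mice had the highest mean of the 4 groups, at 0.23 ± 0.12 against wild-type, which was not called either. Gdnf moved against the cortical marker level among mice of one genotype, and the comparison without Msh3 gave -0.34 with that level in the model (edgeR's quasi-likelihood test, Benjamini-Hochberg adjusted p = 0.0167). In females alone the fold change was -0.13 and not called, in males alone -0.74 and called, and the difference between the sexes was not tested.

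The sequences upstream of Gdnf, Ntrk2 and Ngfr are shown because these genes had an adjusted p under 0.05 in zQ175:Msh3-/- against Msh3-/-, Ntrk2 without reaching 1.2-fold, and have an entry in RefSeq's promoter table. RefSeq windows on GRCm38.p6, from 250 bases before a transcription start to 50 after, were found for 6 of the 10 genes, with 7 starts for Bdnf, 2 each for Ntf3 and Gdnf, and 1 each for Ngfr, Ntrk2 and Gfra1; Ntrk3, Sort1, Gfra2 and Ret had none. They were searched on both strands for the cAMP response element TGACGTCA, its core TGACG, the GC box GGGCGG, the EGR site GCGNGGGCG and the TATA box TATAAA, and letters of any match are in capitals. The core is part of the full response element, and a GC box can overlap an EGR site. Of the 32851 windows in the table, 1.79% hold the full element, 20.8% its core, 35.7% a GC box, 5.55% an EGR site and 13.6% a TATA box. The first Gdnf start, at chr15:7809798-7810097 on the plus strand, has 1 core element and 1 TATA box, and the second, at chr15:7813477-7813776, has no match.
Gdnf start 1: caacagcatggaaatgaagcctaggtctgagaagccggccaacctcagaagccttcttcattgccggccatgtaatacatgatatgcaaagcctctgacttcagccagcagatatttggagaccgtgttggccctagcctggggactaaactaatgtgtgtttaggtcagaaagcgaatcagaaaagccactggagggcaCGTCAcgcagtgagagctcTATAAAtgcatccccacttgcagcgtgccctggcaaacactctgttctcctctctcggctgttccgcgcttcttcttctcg
Gdnf start 2: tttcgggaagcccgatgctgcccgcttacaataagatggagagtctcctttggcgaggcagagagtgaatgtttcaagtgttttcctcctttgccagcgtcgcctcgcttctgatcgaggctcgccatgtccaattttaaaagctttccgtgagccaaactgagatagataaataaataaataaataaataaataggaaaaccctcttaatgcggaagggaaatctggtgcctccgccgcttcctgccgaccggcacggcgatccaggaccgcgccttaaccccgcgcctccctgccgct

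Among the Trk receptors, Ntrk3 (ENSMUSG00000059146; chromosome 7, 78175959 to 78738012, minus strand), which codes for TrkC, fell in zQ175 mice whether or not Msh3 was present. Its lowest, median and highest levels were 194.5, 213 and 277 CPM in wild-type and 138, 160.2 and 186 CPM in zQ175 mice. All 8 zQ175 mice were below all 8 wild-type mice, which 6.63% of all genes tested also showed in one direction or the other. The log2 fold change was -0.465 ± 0.06, or 0.724-fold (edgeR's quasi-likelihood test, Benjamini-Hochberg adjusted p = 1.01e-07), and an exact two-sided permutation test gave p = 0.000155, the smallest that 12870 arrangements of 8 mice against 8 can give. In Msh3-/- mice the levels were 177, 203 and 222 CPM, and in zQ175:Msh3-/- mice 146, 166 and 185 CPM. Here 7 of 8 zQ175:Msh3-/- mice were below every Msh3-/- mouse. The log2 fold change was -0.28 ± 0.06, or 0.824-fold (edgeR's quasi-likelihood test, Benjamini-Hochberg adjusted p = 0.000401; exact permutation test, unadjusted p = 0.000311). This value lies close to the 1.2-fold limit, a log2 of 0.26, and the call was lost without 1 Msh3-/- male (number 4, -0.26) or 1 zQ175:Msh3-/- male (number 3, -0.25) and in females alone (-0.26). It was also lost in a test against a 1.2-fold change (edgeR's glmTreat, Benjamini-Hochberg adjusted p = 1.0) and by limma on log2 TPM in each of 3 forms, which gave -0.18 each.

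Ntrk2 (ENSMUSG00000055254; chromosome 13, 58806569 to 59133970, plus strand) codes for TrkB, and its count sums the full-length receptor and the truncated forms without a kinase that glia also make. Levels of Ntrk2 (lowest, median, highest) were 574, 618 and 689 CPM in wild-type and 514, 534 and 621.5 CPM in zQ175 mice, with 7 of 8 zQ175 mice below every wild-type mouse. The log2 fold change was -0.21 ± 0.05, or 0.867-fold (edgeR's quasi-likelihood test, Benjamini-Hochberg adjusted p = 0.00141), which did not reach 1.2-fold. In Msh3-/- mice the levels were 551, 623.5 and 665 CPM, and in zQ175:Msh3-/- mice 497.5, 551.5 and 629 CPM. That difference was -0.135 ± 0.05, or 0.911-fold (edgeR's quasi-likelihood test, Benjamini-Hochberg adjusted p = 0.0397), and its interval from -0.23 to -0.04 lies within the 1.2-fold limit. Here 4 of 8 zQ175:Msh3-/- mice were below every Msh3-/- mouse. With each mouse left out, the adjusted p of the same test ran from 0.0137 to 0.0944. DESeq2 gave -0.139 (Wald test, Benjamini-Hochberg adjusted p = 0.0567), and over the 17 alternatives the value ran from -0.193 to -0.0601. The RefSeq window at chr13:58806319-58806618 on the plus strand has 1 GC box, which lies after the start.
Ntrk2: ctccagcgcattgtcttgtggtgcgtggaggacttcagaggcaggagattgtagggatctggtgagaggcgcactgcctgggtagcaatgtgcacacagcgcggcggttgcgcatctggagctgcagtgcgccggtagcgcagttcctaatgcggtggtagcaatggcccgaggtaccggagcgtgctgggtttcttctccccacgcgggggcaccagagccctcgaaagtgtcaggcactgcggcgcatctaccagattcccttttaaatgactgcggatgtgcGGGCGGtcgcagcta

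Ngfr (ENSMUSG00000000120; chromosome 11, 95568818 to 95587735, minus strand), the p75 receptor, had the largest fold change of the 9 members over both zQ175 comparisons and fell in zQ175:Msh3-/- mice. Its lowest, median and highest levels were 3.35, 5.30 and 6.86 CPM there, against 4.24, 9.79 and 16.2 CPM in Msh3-/- mice. The groups overlapped because 1 Msh3-/- mouse was at 4.24 CPM, and the other 7 Msh3-/- mice, at 8.38 CPM or more, were above every zQ175:Msh3-/- mouse. For Ngfr the log2 fold change was -0.96 ± 0.26, or 0.515-fold (edgeR's quasi-likelihood test, Benjamini-Hochberg adjusted p = 0.00706). An exact two-sided permutation test of 8 mice against 8 gave an unadjusted p = 0.00233. In zQ175 mice the levels were 3.50, 7.76 and 10.7 CPM against 4.75, 8.13 and 14.8 CPM in wild-type. That difference was not called, at -0.21 ± 0.25 with a 95% interval from -0.72 to 0.30 (edgeR's quasi-likelihood test, Benjamini-Hochberg adjusted p = 0.598). The call without Msh3 was lost in males alone (-1.05) and in females alone (-0.82).

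p75 is best known as a receptor of cholinergic neurons of the basal forebrain, and Ngfr moved with markers of cholinergic interneurons among mice of one genotype. Across the 32 mice, in deviations of log2 CPM from the genotype mean, Ngfr and the mean of 7 cholinergic markers had a Pearson r of 0.547 (permutation within genotype, p = 0.00212, Benjamini-Hochberg adjusted p = 0.0172) and a Spearman rho of 0.521 (permutation p = 0.00324, adjusted p = 0.0262). Without the 2 mice farthest out in that marker level r was 0.392. These p-values were adjusted over 81 relations, 9 members by 9 marker lists. Of the 7 cholinergic markers, 2 were called as lower in zQ175 against wild-type, Chat and Slc5a7, beside 6.89% of all genes. In zQ175:Msh3-/- against Msh3-/-, 6 were called as lower, beside 5.96% of all genes. The other marker, Isl1, had positive log2 fold changes in these comparisons, 0.206 and 0.205, and was not called. Chat, the acetylcholine-producing enzyme, was at -0.27 ± 0.07 and -0.32 ± 0.07, and Slc5a7 at -0.31 ± 0.06 and -0.36 ± 0.06. Slc18a3, the vesicular acetylcholine transporter, was at -0.25 ± 0.08, not called, and -0.42 ± 0.08, called. The summed level of the list ran from 125 to 163 TPM in wild-type mice, 122 to 180 among Msh3-/- mice, 113 to 144 among zQ175 mice and 107 to 143 in zQ175:Msh3-/- mice, with no marker at 0. The part of these cells in the Ngfr result was not tested. The RefSeq window of Ngfr at chr11:95587649-95587948 on the minus strand holds 4 GC boxes, and its 71.7% of G and C compares with a median of 52.7% over all windows.
Ngfr: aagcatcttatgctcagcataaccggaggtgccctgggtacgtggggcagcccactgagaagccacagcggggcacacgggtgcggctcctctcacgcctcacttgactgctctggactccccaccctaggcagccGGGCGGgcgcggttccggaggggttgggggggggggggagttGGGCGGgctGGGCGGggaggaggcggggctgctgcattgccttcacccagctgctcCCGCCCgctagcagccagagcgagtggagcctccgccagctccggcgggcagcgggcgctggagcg

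Sort1 (ENSMUSG00000068747; chromosome 3, 108284082 to 108361511, plus strand) codes for sortilin, which sorts neurotrophin precursors inside the cell and joins p75 at its surface. In wild-type mice Sort1 had its lowest, median and highest levels at 487, 522 and 551 CPM, and in zQ175 mice at 423, 450.4 and 476 CPM. These groups did not overlap in CPM. In TPM they did, with 166.7 to 190.8 in wild-type and 150.5 to 169.8 in zQ175 mice. For Sort1 the log2 fold change was -0.21 ± 0.03, or 0.866-fold (edgeR's quasi-likelihood test, Benjamini-Hochberg adjusted p = 7.89e-06). In Msh3-/- mice the levels were 489, 519 and 543 CPM, and in zQ175:Msh3-/- mice 423, 457 and 502 CPM. There, 7 of 8 zQ175:Msh3-/- mice were below every Msh3-/- mouse, and the log2 fold change was -0.17 ± 0.03, or 0.891-fold (edgeR's quasi-likelihood test, Benjamini-Hochberg adjusted p = 0.000232). None of the 9 members had groups without overlap in CPM in this comparison, against 5.39% of all genes tested. With Msh3 present 2 of the 9 had them, Ntrk3 and Sort1, against 6.63% of all genes tested. Neither Sort1 value reached the 1.2-fold limit. Over the 17 alternatives the values ran from -0.244 to -0.152 with Msh3 present and from -0.193 to -0.0986 without it. Bdnf, Sort1 and Gfra1 each share exonic bases with an antisense gene, Gm45346, Gm12523 and Gm16277, and without a known strand setting reads of such a pair cannot be told apart. These antisense genes were at 0.247, 0.801 and 0.0642 CPM or less in every mouse.

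**Figure D3:**
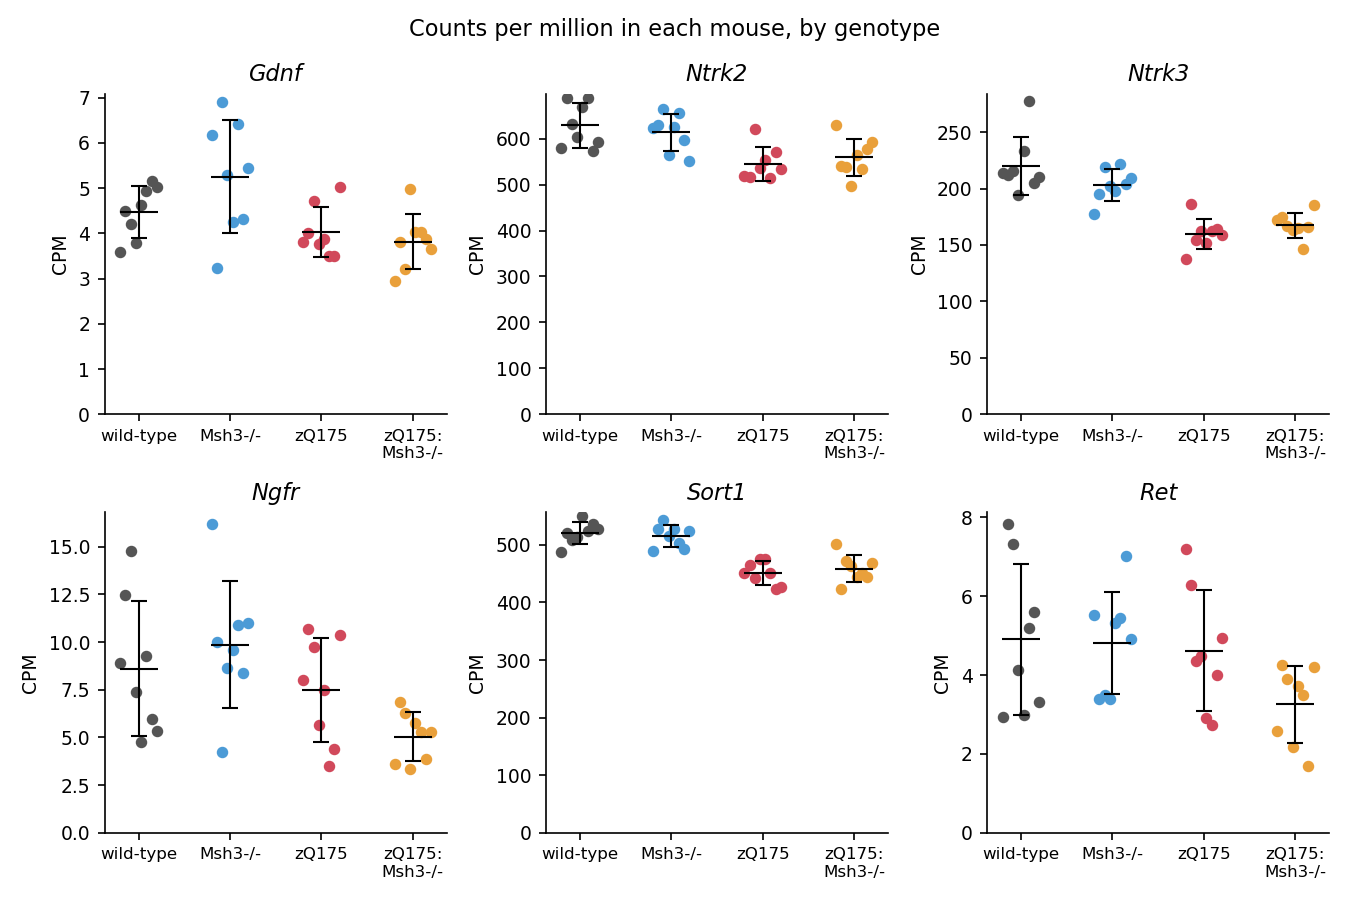
CPM in each of 32 mice for 6 members, by genotype, on axes that start at 0; points are mice, and bars show mean and SD of 8 mice. On this CPM scale, Ntrk3 and Sort1 are lower in every zQ175 mouse than in any wild-type mouse, while Ngfr and Ret spread widely within each genotype.

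Of the receptor components for the GDNF family, Ret (ENSMUSG00000030110; chromosome 6, 118151745 to 118197718, minus strand), the kinase that they share, had its lowest values in zQ175:Msh3-/- mice. Its lowest, median and highest levels were 1.70, 3.615 and 4.27 CPM there and 3.38, 5.12 and 7.01 CPM in Msh3-/- mice. The groups overlapped, and the log2 fold change of -0.565 ± 0.23 was not called (edgeR's quasi-likelihood test, Benjamini-Hochberg adjusted p = 0.0751). It was called when the fit held those 2 groups alone (edgeR's quasi-likelihood test, Benjamini-Hochberg adjusted p = 0.037). In zQ175 mice the levels were 2.725, 4.42 and 7.19 CPM against 2.94, 4.65 and 7.83 CPM in wild-type, a log2 fold change of -0.11 ± 0.22 with an interval from -0.57 to 0.35. Ret moved with markers of parvalbumin interneurons among mice of one genotype (r = 0.581, permutation p = 0.00089, adjusted over 81 relations p = 0.0103; rho = 0.551, permutation p = 0.00213, adjusted p = 0.0216; r = 0.485 without the 2 farthest mice). The summed level of that list overlapped in all groups (136 to 231 TPM in wild-type mice, 131 to 227 among Msh3-/- mice, 165 to 259 among zQ175 mice and 126 to 233 in zQ175:Msh3-/-), with none at 0. Ret and Ngfr also moved together, 1 of 4 member pairs of 36 past the adjusted threshold (r = 0.65, permutation p = 9e-05, adjusted p = 0.00108; rho = 0.645, permutation p = 0.00021, adjusted p = 0.00288; r = 0.608 without the 2 farthest mice).

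Gfra1 (ENSMUSG00000025089; chromosome 19, 58235604 to 58455909, minus strand), the GDNF co-receptor, was the steadiest of the lower-level members. Lowest, median and highest Gfra1 levels were 56.3, 60.5 and 67.6 CPM in wild-type mice, 58.0, 64.35 and 69.8 CPM among Msh3-/- mice, 52.55, 58.9 and 65.65 CPM in zQ175 and 56.6, 61.5 and 67.3 CPM in zQ175:Msh3-/- mice. The groups overlapped throughout. The log2 fold changes were -0.07 ± 0.05 with Msh3 present, with an interval from -0.17 to 0.03, and -0.06 ± 0.05 without it, with an interval from -0.16 to 0.04, so that both intervals lie inside the 1.2-fold limits.

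Gfra2 (ENSMUSG00000022103; chromosome 14, 70890120 to 70979838, plus strand), the neurturin co-receptor, spread widely within each genotype. For Gfra2 the lowest, median and highest levels were 6.10, 11.5 and 16.8 CPM in wild-type and 6.31, 10.95 and 20.4 CPM in Msh3-/- mice. In zQ175 mice they were 5.42, 12.1 and 18.6 CPM, and in zQ175:Msh3-/- mice 7.53, 11.97 and 26.7 CPM. All 4 groups overlapped. The log2 fold changes were 0.27 ± 0.28 with Msh3 present and 0.275 ± 0.28 without it, with intervals from -0.30 to 0.84 and from -0.295 to 0.845.

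Bdnf and Gfra2 spread widely between mice of one genotype and followed the cortical marker level closely. Across the 32 mice, in deviations of log2 CPM from the genotype mean, Bdnf and the mean of the 10 cortical markers had a Pearson r of 0.926 and a Spearman rho of 0.882, and Gfra2 and the same mean had r = 0.924 and rho = 0.94. Each of these 4 values had a permutation p of 1e-05, the smallest that 100000 permutations can give, and 0.000405 after Benjamini-Hochberg adjustment over the 81 relations. Without the 2 farthest mice r was 0.895 for Bdnf and 0.899 for Gfra2. Bdnf and Gfra2 moved with each other (r = 0.836, permutation p = 1e-05, adjusted over 36 member pairs p = 0.00036; rho = 0.795, permutation p = 2e-05, adjusted p = 0.00072; r = 0.788 without the 2 farthest mice). Gdnf moved against the cortical markers (r = -0.634, permutation p = 0.00024, adjusted p = 0.00486; rho = -0.622, permutation p = 0.00059, adjusted p = 0.00956; r = -0.541 without the 2 farthest mice).

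The same pattern can be read from single mice. The wild-type mouse with the lowest Bdnf, 0.57 CPM, had 40.4 CPM of Slc17a7, the second lowest of its group, and the zQ175:Msh3-/- mouse with the highest Bdnf, 10.3 CPM, had 508 CPM, the highest of its group. In Msh3-/- and zQ175 mice too, the mouse with the lowest Bdnf was the one with the lowest Slc17a7, at 35.6 and 25.5 CPM. Among the 10 cortical markers, the medians of log2 fold change were 0.48 with Msh3 present and 0.53 without it, although only Cux2 (0.445 ± 0.17, with Msh3 present) rose and Nrgn fell in both (-0.36 ± 0.09 and -0.32 ± 0.09). Beside these calls, 4.7% of all genes were called as higher and 6.89% as lower with Msh3 present. Without Msh3 the shares were 4.68% and 5.96%. With the cortical marker level in the model, the log2 fold changes of Bdnf became -0.11 with Msh3 present and -0.275 without it, and those of Gfra2 became -0.08 and -0.13. None of these 4 values was called (edgeR's quasi-likelihood test, Benjamini-Hochberg adjusted p = 0.709, 0.257, 0.632 and 0.419). That model was added after the data were seen. Ntrk3, Ngfr and Gdnf kept their calls in it in the comparison without Msh3, and Ntrk3 in that with Msh3.

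**Figure D4:**
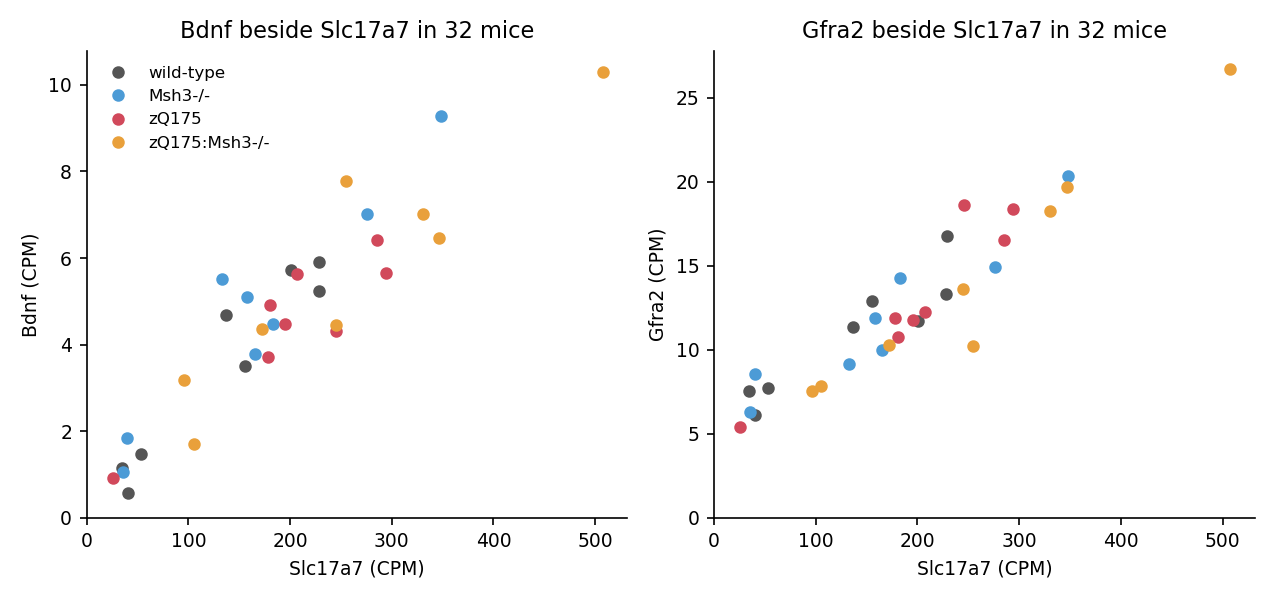
CPM of Bdnf (left) and Gfra2 (right) against CPM of Slc17a7 in 32 mice on linear axes, with colour for genotype. Mice with low Slc17a7 have low Bdnf and Gfra2 in each genotype, down to 25.5 CPM of Slc17a7 with 0.928 CPM of Bdnf, and the mouse at 508 CPM of Slc17a7 has the highest values of both genes.

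The other called members did not move with the cortical markers past the adjusted threshold. For Ntrk3 the list past that threshold was the endothelial and mural one (r = -0.489, permutation p = 0.00203, adjusted over 81 relations p = 0.0172; rho = -0.541, permutation p = 0.00172, adjusted p = 0.0199; r = -0.434 without the 2 farthest mice). Of the 8 markers in that list, 3 fell in zQ175 against wild-type, beside 6.89% of all genes. Without Msh3, 0 were called, where 5.96% of all genes were called as lower. The sum of the 8 ran from 181 to 205 TPM in wild-type mice and 155 to 212 among Msh3-/- mice. It ran from 141 to 185 among zQ175 mice and 155 to 185 in zQ175:Msh3-/- mice. The genes most like Ntrk3 among the 16610, by r over the 32 deviations, were Grin2b, an NMDA receptor subunit, at 0.841, and Plec, a cytoskeletal linker, at 0.839; this is a description without a test. Sort1 moved against markers of septum, pallidum and choroid plexus (r = -0.53, permutation p = 0.00298, adjusted p = 0.0219; rho = -0.58, permutation p = 0.00087, adjusted p = 0.0117; r = -0.465 without the 2 farthest mice). The summed level of that list ran from 92.5 to 2910 TPM in wild-type mice, 108 to 3320 among Msh3-/- mice, 129 to 3450 among zQ175 mice and 113 to 5750 in zQ175:Msh3-/- mice, and with it in the model the log2 fold changes of Sort1 were -0.22 and -0.18. In all, 12 of the 81 relations passed by r, the others being Bdnf and Gfra2 against spiny neuron markers (r = -0.607 and -0.692, permutation adjusted p = 0.00675 and 0.00189) and cholinergic markers (r = -0.589 and -0.611, permutation adjusted p = 0.0114 and 0.00675), and Gdnf with spiny neuron markers (r = 0.487, permutation adjusted p = 0.0462). By rho, Gdnf with spiny neuron markers did not pass (rho = 0.475, permutation p = 0.00845, adjusted p = 0.0526). The part of endothelial, mural and parvalbumin cells in the results for Ntrk3 and Ret was not tested.

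The second question was whether loss of Msh3 changes these genes, without the zQ175 allele (Msh3-/- against wild-type) or with it (zQ175:Msh3-/- against zQ175). These comparisons share their mice with the ones above, so their values are not independent of them. Of the 9 members, 0 were called in either, where 0.00602% of all genes, that is 1 gene, were called in each. At an unadjusted p under 0.05 there were 846 genes without the zQ175 allele, 0 of the 9 members among them, and 614 with it, among them Ngfr and Ret. Ngfr was at -0.57 ± 0.26 and Ret at -0.48 ± 0.23 in zQ175:Msh3-/- against zQ175, each with an adjusted p of 0.999 (edgeR's quasi-likelihood test, Benjamini-Hochberg adjustment). For Ntrk3 the difference was 0.07 ± 0.06, with an interval from -0.05 to 0.19, for Ntrk2 0.04 ± 0.05 from -0.06 to 0.13, and for Sort1 0.02 ± 0.03 from -0.04 to 0.09. These 3 intervals lie within 1.2-fold. DESeq2 also called 0 of the members in both comparisons.

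The interaction, the zQ175 effect without Msh3 minus that with Msh3, tests whether the effects differ. It was called for 0 of the 9 members, where 0% of all genes were called. At an unadjusted p under 0.05 there were 737 genes, with 2 members among them, and DESeq2 also called 0 members. For Ngfr it was -0.75 ± 0.36 and for Ntrk3 0.19 ± 0.08 (edgeR's quasi-likelihood test, Benjamini-Hochberg adjusted p = 0.999 for both). For Gdnf it was -0.32 ± 0.175 and for Ret -0.45 ± 0.32. The calls of Gdnf and Ngfr without Msh3 are therefore not shown to differ from their uncalled values with Msh3 present. Averaged over both Msh3 genotypes, which uses the same mice once more, 3 of the 9 members were called as lower: Ntrk3 at -0.37 ± 0.04, Gdnf at -0.31 ± 0.09 and Ngfr at -0.58 ± 0.18. Of all genes, 13.7% were called in this average, 6.32% as higher and 7.38% as lower. The adjusted p-values were 3.47e-09, 0.00493 and 0.0107 (edgeR's quasi-likelihood test, Benjamini-Hochberg adjustment), and Gdnf lost the call with the cortical marker level in the model (-0.20).

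Among other genes of the same families, Sorcs2, a sortilin relative that binds p75, fell in both comparisons of zQ175 with its control, at -0.435 ± 0.06 and -0.37 ± 0.06. Of 8 further GDNF family genes, 4 were tested. Nrtn, which codes for neurturin, fell in both comparisons, at -0.851 ± 0.13 and -0.855 ± 0.13, in the first of them from 4.78 ± 1.26 CPM in wild-type to 2.66 ± 0.401 CPM in zQ175 mice (SD, n = 8). No zQ175 mouse, at 3.25 CPM or less, reached the lowest wild-type mouse at 3.56 CPM. Gfra4, the co-receptor of persephin, rose in zQ175 against wild-type at 0.27 ± 0.05 and was at 0.15 ± 0.05 without Msh3, below the 1.2-fold limit.

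Downstream of the receptors, 32 adaptors and first kinases of Trk and Ret signalling were all tested. Of these, 1 rose (Gab2, a docking protein, 0.32 ± 0.06) and 1 fell (Dok4, a docking protein of Ret, -0.50 ± 0.06) in zQ175 against wild-type, and 0 rose and 1 fell (Dok4, -0.40 ± 0.06) without Msh3. Of 15 tested partners of p75, 1 was called, Nradd, a p75 relative without a ligand-binding part, at 0.55 ± 0.19 with Msh3 present. Of 14 tested genes for cleavage and release of neurotrophin precursors and 21 regulators of Bdnf transcription, 0 were called in either comparison. Of 18 genes of Ras-ERK feedback or known to be induced by BDNF, 4 fell with Msh3 present and 7 without it, and 0 rose. Beside the counts in this paragraph, 4.7% of all genes were called as higher and 6.89% as lower with Msh3 present. Without Msh3, 4.68% of all genes were called as higher and 5.96% as lower. Egr2, an immediate early transcription factor, fell at -1.45 ± 0.39 and -1.86 ± 0.39, with groups that overlapped in both comparisons. Its levels were 2.52 to 7.57 CPM in zQ175 mice against 6.39 to 16.9 CPM in wild-type. In zQ175:Msh3-/- mice they were 2.08 to 7.4 CPM, and Msh3-/- mice spread from 3.06 to 46.0 CPM. The feedback inhibitors Spry2 and Spred1 fell at -0.37 ± 0.08 and -0.48 ± 0.08 and at -0.30 ± 0.06 and -0.27 ± 0.06. Medians over the list of 18 were -0.15 and -0.27, and these genes respond to many other signals of the tissue as well.

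Among the remaining cell type lists, called genes were 0 of 6 microglia markers in both comparisons, 1 of 9 astrocyte and 1 of 10 oligodendrocyte lineage markers, both lower, with Msh3 present and 0 of each without it. Of 9 septal, pallidal and choroid plexus markers 0 were called with Msh3 present, and 1 rose and 2 fell without it. Of 5 tested parvalbumin interneuron markers, 1 fell with Msh3 present, and 1 rose and 1 fell without it. Beside these lists, 4.7% of all genes were called as higher and 6.89% as lower with Msh3 present. Without Msh3, 4.68% of all genes were called as higher and 5.96% as lower.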

How the data were processed

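RNA-seq of 32 striata was analysed. Per the labels, libraries were made with polyA selection and read as paired ends. The authors deposited whole-number read counts per gene and a table named as FPKM whose columns each sum to 1000000, which was read as TPM. The build in the submitters' processing notes is GRCm38.p6, and the aligner, counting program, annotation and strand setting are not given in the sources used here. Gene symbols and positions are from GENCODE M21, which holds 54495 of the 54532 identifiers. No column of per-mouse values was left out.

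Groups, sex and replicate numbers were taken from the labels. Counts were tested in 1 model of 4 genotypes over 32 mice by edgeR 4.0.16 (R 4.3.3) with TMM scaling, a filter on low counts and robust quasi-likelihood fits. Benjamini-Hochberg adjustment ran over 16610 genes, and a call needed at least a 1.2-fold difference besides an adjusted p under 0.05. The common biological coefficient of variation was 0.0985. Total counts per mouse ran from 12359347 to 25030335, and 3 reads in the shallowest mouse are a share of 2.43e-05%; such floors cover counting error only. Exact permutation tests used TMM log2 CPM. Correlations used 100000 permutations of mice within genotype.

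DESeq2 1.42.0, limma 3.58.1 on log2 TPM with a pseudocount of 0.1 or 1, other filters, scalings, covariates and thresholds, each sex alone and each mouse left out were alternatives. TPM fold changes on these scales understate the change of low genes. Ntrk3 is not such a gene, with a mean of 50.0 TPM over the 32 mice. Without Msh3 it was nonetheless at -0.18 by limma beside -0.28 by edgeR. Ntrk2 and Sort1 also fell less in TPM than in CPM in that comparison. Mean Ntrk2 was 559.0 against 613.8 CPM in Msh3-/- mice, and 188.9 against 196.9 TPM. Mean Sort1 was 458.7 against 515.1 CPM, and 165.3 against 176.9 TPM. The cause was not tested. The tests were checked on simulated counts. Summaries and figures were made in Python 3.11.15 (pandas 2.3.3, scipy 1.17.1, numpy 2.4.6, matplotlib 3.10.9).

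The 10 genes and the lists were chosen with earlier results of these data known, so no p-value is adjusted over a list. Genes named from a list were among the up to 3 higher and 3 lower called genes with the smallest adjusted p. Not all such genes are named here. Also named were Msh3, marker genes that move with a member, and Isl1, a cholinergic marker with the opposite sign. The 2 genes most like a member called in zQ175 against wild-type were named too. One list, of further neurotrophin and sortilin family genes, is not reported here in full.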

Additional observations from a re-analysis of the deposited data

Results flagged for a closer look

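Of 36 sets of 8 mice, 9 members in 4 genotypes, 2 had a mouse that stood apart from the rest by Dixon's criterion at the 95% level, for which the gap to its neighbour must exceed 0.526 of the whole range on the log2 CPM scale; chance gives about 1.8 of 36. Both were the same zQ175 male. Its Bdnf was at 0.928 CPM, with the other 7 zQ175 mice between 3.72 and 6.42 CPM, and the gap was 0.71 of the range. Its Gfra2 was at 5.42 CPM, with the others between 10.8 and 18.6 CPM, and the gap was 0.556 of the range. The same mouse had the lowest Slc17a7 of its group, 25.5 CPM.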

How the results depend on the processing

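Of 2628 values of single members under 17 alternatives and with each of 32 mice left out, 2589 kept their side of the threshold, 31 lost a call, 8 gained one and 0 called values changed sign. A sign differed in 83 further values that were called in neither setting.

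For zQ175 against wild-type, 1 member was called, and the number was 3 by adjusted p alone and 0 at a fold change of at least 1.5; the construction of these settings, a looser and a stricter threshold, sets that change. Leaving out each mouse gave 1. For zQ175:Msh3-/- against Msh3-/-, 3 were called, and the number was 5 by adjusted p alone, 1 at 1.5-fold, 0 in a test against a 1.2-fold change, 1 by limma on log2(TPM + 0.1) without a filter and 0 in females alone. It was 2 by limma with a filter on TPM at either pseudocount (Ntrk3 lost), 2 in males alone (Ngfr lost) and 4 with only the groups compared in the fit (Ret gained). Leaving out each mouse gave 2 to 3. Averaged over Msh3 genotypes, 3 were called, and the number was 5 by adjusted p alone, 0 at 1.5-fold, 1 in a test against a 1.2-fold change, 1 by limma in each of 3 forms (Ngfr) and 1 in females alone (Ntrk3). It was 2 in males alone (Ngfr lost) and 2 with the cortical marker level in the model (Gdnf lost). Leaving out each mouse gave 3 to 4, the fourth being Ret without 1 zQ175 female (number 1, -0.40). For both comparisons of Msh3 loss and for the interaction, 0 members were called under every alternative run. For settings other than thresholds and fewer mice, the cause was not tested. The models with cortical or with septal, pallidal and choroid plexus marker level were added after seeing the data. The numbers of all genes called in the first 2 comparisons, 1925 and 1768, became 4398 and 4002 by adjusted p alone. They were 538 and 503 at 1.5-fold and 641 and 541 in the test against a 1.2-fold change. For the average, 2276 became 6570, 511 and 824. In the first 2 comparisons males alone gave 1180 and 1583, and females alone gave 1819 and 1067.

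The labels give replicate numbers within sex, but do not say what mice of 1 number share. Of 45 pairs of same-numbered mice in different genotypes, 14 had a correlation of deviations above 0.1 (range -0.147 to 0.333, median 0.05), and 9 were best matched by their own number, so the numbers were not taken as pairs. With a replicate block the numbers of called members stayed at 1, 3, 0, 0, 0 and 3 in the 6 comparisons.

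Depth limits Ntf3, and spread between mice limits Bdnf, Gfra2, Ngfr and Ret.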
